A study of Mus musculus with 18 samples.

Results

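The 9 genes described here encode the signalling chains of the T cell receptor (TCR) and the proteins that act closest to them. They are the 4 chains of the CD3 complex, Cd3d, Cd3e, Cd3g and Cd247, the tyrosine kinases Lck and Zap70, the adaptors Lat and Lcp2 (SLP-76), and Themis. They were chosen by name for these roles, by a rule that used no measured value, although earlier results of these data were known when they were chosen, and were found by Entrez gene identifier among the 27179 genes of the count files. All 9 were among the 12798 genes tested.

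Thymocytes were sorted from 3 mice of each of 3 genotypes and sequenced as bulk RNA, giving 18 samples in 6 groups of 3. WT mice were C57BL/6. In Hoil ΔCd4 mice (labelled Hoil), a Cd4-Cre transgene deleted the promoter and the first exons of Rbck1, the gene of HOIL-1, in T-lineage cells from the CD4+ CD8+ double-positive stage onwards. Sharpin cpdm mice (labelled Sharpin) carry a spontaneous mutation and lacked SHARPIN in every cell, not T cells alone. They came from a C57BL/Ka background with a pair of backcrosses onto C57BL/6, so that linked or residual background alleles cannot be told apart from the loss of SHARPIN. HOIL-1 and SHARPIN are subunits of LUBAC, the complex that makes linear ubiquitin chains. From each mouse 2 fractions of CD69+ cells were taken, MHC I low and MHC I high, after dead cells and cells bearing the δTCR, the activation markers CD44 and CD25, the NK cell marker NK1.1, the myeloid markers Mac-1 and Gr1, or B220 or MHC II, had been gated out. CD69 marks cells that have received a selecting signal, and surface MHC I rises as they mature. The ages of the mice were not given in the labels.

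The TCR itself has no enzymatic activity. Peptide on MHC is bound by the α and β chains, and the signal is carried into the cell by immunoreceptor tyrosine-based activation motifs in the CD3δ, CD3ε, CD3γ and CD3ζ chains. Lck phosphorylates these motifs, ZAP-70 docks on them and in turn phosphorylates LAT and SLP-76, on which calcium, Ras and NF-κB signalling are assembled. Themis modulates this signalling in developing thymocytes and is needed for normal positive selection.

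Counts assigned to genes ran from 10577966 to 16266128 per sample, with a median of 13979793, and each of the 9 genes had at least 2813 counts in every sample. Summed over 7 T-lineage genes, CPM ran from 5104 to 6352. Rbck1 fell from 223 ± 6.08 CPM (SD, n = 3) to 0.544 ± 0.256 CPM in the MHC I low fraction of Hoil ΔCd4 mice and from 266 ± 2.28 CPM to 5.72 ± 2.81 CPM in the MHC I high fraction, in keeping with the labels. The Sharpin transcript was lower in Sharpin cpdm mice without being lost, at 71.5 ± 4.49 CPM against 91.3 ± 5.76 CPM in the low fraction. H2-K1, an MHC I heavy chain, rose from 216 ± 5.87 CPM to 2003 ± 27 CPM in WT mice. Defining markers of B cells, myeloid cells and thymic epithelium were low throughout: summed over 7, 12 and 7 genes, they reached at most 6.48, 10.9 and 11.9 CPM in any sample. All WT mice expressed Xist, whereas 2 mice of each mutant genotype expressed Ddx3y, with Xist at or under 7.49 CPM in all but 1 of their samples, so sex was not balanced between WT and the mutants. The exception was the MHC I high sample of Hoil mouse 2, with 64.6 CPM of Xist beside 339 CPM of Ddx3y, against 0.606 CPM of Xist in its low sample.

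The windows from 250 bases before to 50 bases after the annotated start of these genes were read from RefSeq (GRCm38.p6, the same assembly as the mm10 build of the files), in which all 9 genes were matched. Shown first are the windows of genes whose transcript was higher in the MHC I high fraction of WT mice, Cd3g, Cd3e and Lck, and then those of genes whose transcript was lower, Zap70, Lcp2 and Themis. For Lck, Zap70 and Themis, which have more than 1 annotated start, the first listed is printed. Capitals mark every match, on either strand, to the letters GGAAGT (an ETS core), TGTGGT (a RUNX core), CAGNTG (an E-box) or TATAAA (the TATA box). No match overlapped another in these windows.
Cd3g (chr9:44980382-44980681, reverse strand): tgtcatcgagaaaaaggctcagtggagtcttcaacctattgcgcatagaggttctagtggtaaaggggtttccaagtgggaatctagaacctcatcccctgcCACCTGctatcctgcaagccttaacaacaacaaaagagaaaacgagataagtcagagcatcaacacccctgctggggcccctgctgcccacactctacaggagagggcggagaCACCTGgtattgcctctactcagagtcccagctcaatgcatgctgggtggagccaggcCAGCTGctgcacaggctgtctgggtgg
Cd3e (chr9:45009562-45009861, reverse strand): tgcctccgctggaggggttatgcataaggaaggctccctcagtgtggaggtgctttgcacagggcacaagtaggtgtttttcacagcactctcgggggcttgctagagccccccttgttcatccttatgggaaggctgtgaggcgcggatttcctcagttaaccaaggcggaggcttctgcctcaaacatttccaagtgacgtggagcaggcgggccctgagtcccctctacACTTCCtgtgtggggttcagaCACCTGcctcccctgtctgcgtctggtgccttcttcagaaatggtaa
Lck (chr4:129573592-129573891, reverse strand): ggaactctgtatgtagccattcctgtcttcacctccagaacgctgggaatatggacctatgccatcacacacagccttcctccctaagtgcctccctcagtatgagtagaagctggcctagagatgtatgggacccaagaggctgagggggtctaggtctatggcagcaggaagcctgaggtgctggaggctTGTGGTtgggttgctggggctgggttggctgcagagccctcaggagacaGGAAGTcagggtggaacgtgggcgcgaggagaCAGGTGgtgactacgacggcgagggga
Zap70 (chr1:36761548-36761847, forward strand): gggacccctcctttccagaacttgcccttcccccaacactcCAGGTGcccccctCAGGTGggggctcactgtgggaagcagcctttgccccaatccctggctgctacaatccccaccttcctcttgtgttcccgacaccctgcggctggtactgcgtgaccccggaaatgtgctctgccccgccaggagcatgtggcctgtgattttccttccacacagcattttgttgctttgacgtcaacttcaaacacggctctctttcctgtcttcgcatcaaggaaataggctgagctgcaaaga
Lcp2 (chr11:34046678-34046977, forward strand): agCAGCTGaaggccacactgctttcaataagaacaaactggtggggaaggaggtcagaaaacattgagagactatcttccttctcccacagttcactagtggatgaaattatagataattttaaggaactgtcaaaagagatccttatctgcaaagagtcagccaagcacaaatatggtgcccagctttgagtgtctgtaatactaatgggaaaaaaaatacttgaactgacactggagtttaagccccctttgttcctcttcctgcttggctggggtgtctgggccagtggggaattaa
Themis (chr10:28668110-28668409, forward strand): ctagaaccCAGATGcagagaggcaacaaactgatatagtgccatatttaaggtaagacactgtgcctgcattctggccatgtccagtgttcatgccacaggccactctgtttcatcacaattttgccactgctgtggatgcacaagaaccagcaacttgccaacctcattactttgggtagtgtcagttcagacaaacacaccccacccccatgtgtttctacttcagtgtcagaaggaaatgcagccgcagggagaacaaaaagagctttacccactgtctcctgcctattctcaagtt

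Each of these 6 windows held at least 1 E-box, a sequence present in 51.4% of all 32851 promoter windows of the same length. Cd3g held 3 E-boxes and Zap70 held 2. The ETS letters, in 23.8% of all windows, stood in those of Cd3e and Lck, and the RUNX letters, in 16.8%, in that of Lck. The TATA letters, in 13.6% of all windows, were found in none of the 6. These matches depend on the start that is printed. The window of the other Themis start held no match, and that of the other Lck start held ETS letters and an E-box without RUNX letters. For Zap70, the window of the start at chr1:36764515 held ETS and RUNX letters without an E-box, and that at chr1:36778984 an E-box alone. The matches are given as a description of the sequence only. Cd3g and Cd3d are neighbours on chromosome 9 that are read away from each other, with 1355 bases between their starts, and Cd3e starts 27825 bases from Cd3d.

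Compared per kilobase of exon, as RPKM, the 9 genes were among the most abundant transcripts of these cells. Themis, the lowest, was at percentile 92.0 of the genes tested and Lat, the highest, at 99.7. Median RPKM over the 18 samples was 668 for Lat, 628 for Cd3g, 596 for Lck, 348 for Cd3e, 338 for Cd3d, 207 for Zap70, 150.0 for Lcp2, 110.2 for Cd247 and 67.4 for Themis. Neighbours in the upper part of this order were not separated: Lat exceeded Cd3g in 13 of 18 samples, Cd3g exceeded Lck in 11, and Cd3e exceeded Cd3d in 10. Every other neighbouring pair kept its order in 18 of 18 samples. Cd247, the ζ chain, stood at 98.4 to 123 RPKM across all samples, the lowest of the 4 signalling chains on this scale. That place rests on an exon length of 4604 bases, as given in the count files. In the GENCODE annotation, a different one, 3007 bases of its exons overlap a gene on the opposite strand. If the overlap also held in the annotation used for counting, and reads there were not counted, the level of Cd247 per length would be understated. Over the 18 samples no gene of the set varied by more than 1.53 times between its highest and lowest CPM, the widest being Zap70 and the narrowest Cd3d, at 1.21 times.

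**Figure D1:**
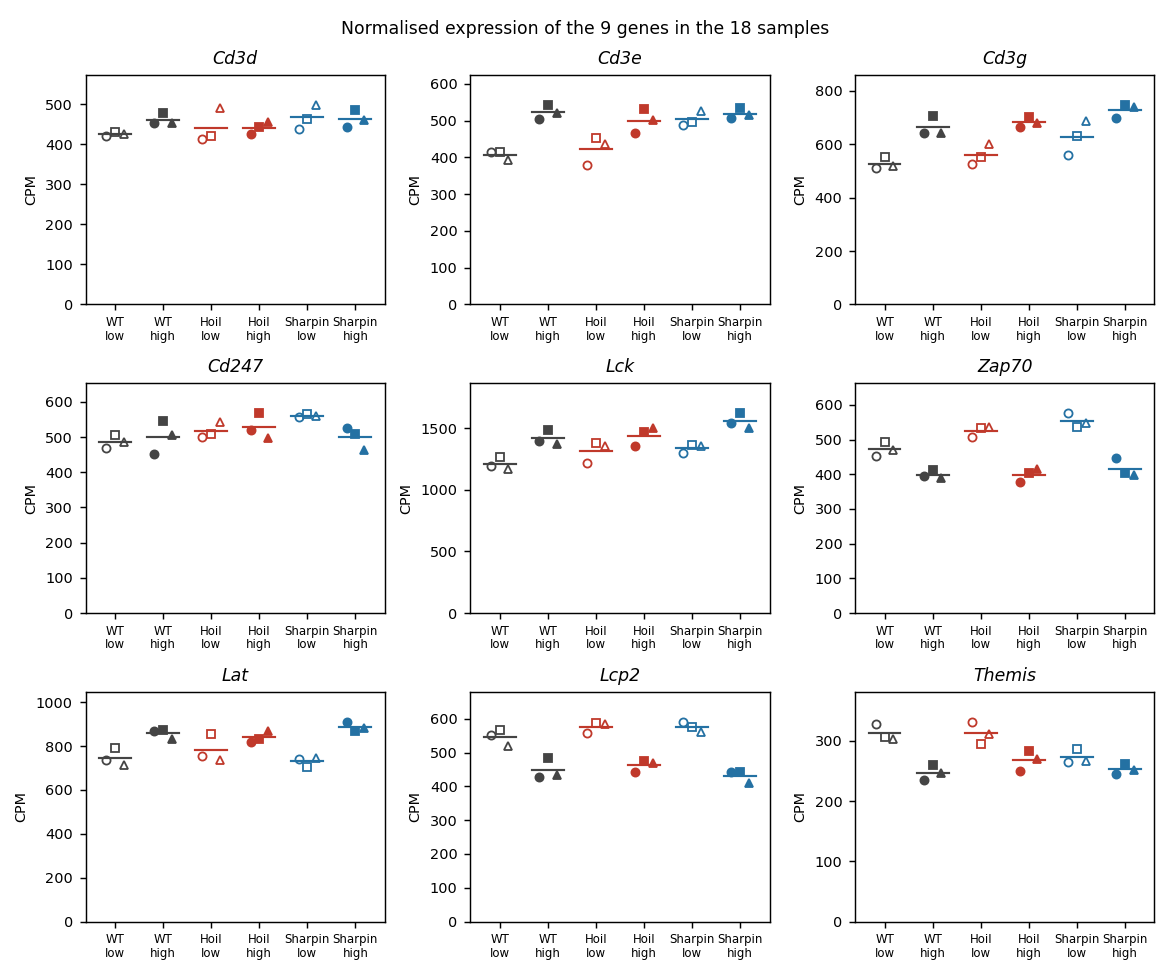
Normalised expression (CPM, counts scaled to library size by TMM) of each of the 9 genes in all 18 samples, by group on the horizontal axis, with a vertical axis from 0. Circles, squares and triangles are mice 1, 2 and 3, open symbols the MHC I low and filled symbols the MHC I high fraction, and lines the group means of 3 mice. Zap70, Lcp2 and Themis were lower in the high fraction of all 9 mice, and Cd3g and Lck were higher in the high fraction of all 9.

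Values of each gene in every sample, as CPM (counts scaled to a common library size), are given first. The values of the high and low fraction did not overlap for 52.7% of all genes tested in WT mice, 48.9% in Hoil ΔCd4 mice and 55.8% in Sharpin cpdm mice, and those of Sharpin cpdm and WT mice in the low fraction did not for 30% of them. Cd3d (Entrez gene 12500, chr9:44981769-44987052) encodes CD3δ, which pairs with CD3ε beside the TCR α chain. In WT mice 1, 2 and 3 Cd3d stood at 420.4, 431 and 427 CPM in the MHC I low and at 454, 479 and 454 CPM in the MHC I high fraction. The Hoil ΔCd4 mice had 413, 420.3 and 491 CPM in the low and 426, 445 and 455 CPM in the high fraction. Sharpin cpdm mice had 438, 464 and 499.8 CPM and 443, 487 and 462 CPM. Cd3d was thus the steadiest gene of the set, and neighbouring groups overlapped throughout the order of the group means.

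Cd3e (Entrez gene 12501, chr9:44998735-45009663) encodes CD3ε, the chain present in both CD3 pairs and needed for the receptor to reach the surface. Its WT values were 416, 414 and 394 CPM in the low fraction and 504, 544 and 521 CPM in the high fraction, with no overlap. In Hoil ΔCd4 mice they were 378, 453 and 437 CPM and 465, 530.5 and 503 CPM, and in Sharpin cpdm mice 488, 497 and 527 CPM and 507, 534 and 515 CPM. The low fraction of Sharpin cpdm mice lay with the high fractions: its 3 samples were above all 3 low samples of WT and of Hoil ΔCd4 mice.

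Cd3g (Entrez gene 12502, chr9:44969572-44980431) encodes CD3γ, the partner of CD3ε beside the TCR β chain. WT samples held 511, 553 and 517 CPM in the low and 644, 708 and 640.5 CPM in the high fraction. Hoil ΔCd4 samples held 525, 554 and 603 CPM and 666, 702 and 678 CPM, and Sharpin cpdm samples 562, 631 and 688 CPM and 698, 749 and 739 CPM. Within each genotype, every high sample exceeded every low sample.

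Cd247 (Entrez gene 12503, chr1:165779952-165871153) encodes CD3ζ, the chain with the most activation motifs. Its WT values were 469, 507 and 486 CPM in the low and 453, 546 and 505 CPM in the high fraction, which overlapped. They were 499, 508 and 542 CPM and 520.2, 568 and 497 CPM in Hoil ΔCd4 mice, also overlapping. In Sharpin cpdm mice the low samples, at 557, 565 and 559 CPM, all exceeded the high samples, at 527, 508 and 462 CPM. In the GENCODE annotation, which was not the one used for counting, exons of Cd247 share 3007 bases with Pou2f1 on the opposite strand. The library kit was not stated to keep strand, and without strand reads of that stretch could come from either gene. Whether the overlap held in the annotation used for counting, and how such reads were counted, is not known. The log2 fold change of Pou2f1 was −0.31 (adjusted p = 0.127) between the low fractions of Sharpin cpdm and WT mice, where that of Cd247 was 0.21, and 0.25 (adjusted p = 0.0642) between the fractions of Sharpin cpdm mice, where that of Cd247 was −0.17.

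Lck (Entrez gene 16818, chr4:129548344-129573641), the Src-family kinase carried by the CD4 and CD8 co-receptors, had the highest CPM of the set. In WT mice it stood at 1194, 1269 and 1173 CPM in the low and 1395, 1488 and 1372 CPM in the high fraction. Hoil ΔCd4 mice had 1215, 1377 and 1357 CPM and 1358, 1466 and 1498 CPM, with overlap. Sharpin cpdm mice had 1300.0, 1365 and 1357 CPM and 1540.0, 1623 and 1504 CPM, so that their high samples were the 3 highest Lck values of the series.

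Zap70 (Entrez gene 22637, chr1:36761798-36782821), the kinase recruited to phosphorylated CD3 chains, ran the other way. WT values were 454, 493 and 469.6 CPM in the low and 394, 412 and 389 CPM in the high fraction. In Hoil ΔCd4 mice they were 507, 532 and 536 CPM and 378, 404 and 417 CPM, and in Sharpin cpdm mice 576, 538 and 549 CPM and 447, 404 and 398 CPM. The low fractions were ordered Sharpin cpdm, Hoil ΔCd4 and WT by their means, with no overlap between neighbours, whereas the 3 high fractions were close to each other, at means of 416, 399 and 398 CPM.

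Lat (Entrez gene 16797, chr7:126363827-126369705) encodes the transmembrane adaptor phosphorylated by ZAP-70. WT mice had 738, 791 and 713 CPM in the low and 871, 874 and 833 CPM in the high fraction, without overlap. Hoil ΔCd4 mice had 755, 853 and 736 CPM and 817, 833 and 870.1 CPM, which overlapped through the low sample of mouse 2. Sharpin cpdm mice had 741, 706 and 748 CPM and 912, 867 and 883 CPM, without overlap.

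Lcp2 (Entrez gene 16822, chr11:34046928-34092281) encodes SLP-76, the cytosolic adaptor joined to LAT through Gads. Its WT values were 552, 568 and 520.5 CPM in the low and 427, 484 and 434 CPM in the high fraction. Hoil ΔCd4 mice had 557, 588 and 583 CPM and 442, 474 and 470.0 CPM, and Sharpin cpdm mice 592, 575 and 561 CPM and 442, 442 and 411 CPM. All 9 low samples exceeded all 9 high samples. Smaller stretches of exon are shared in the GENCODE annotation with a gene on the opposite strand by Lcp2 (282 bases with 4930469K13Rik), Themis (153 bases with 4930519F09Rik) and Cd3e (135 bases with Gm48719).

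Themis (Entrez gene 210757, chr10:28668360-28883820), a thymocyte-enriched regulator that binds the Grb2 adaptor and the phosphatase SHP-1, was the least abundant of the set. WT mice had 328, 306 and 303 CPM in the low and 235, 259.9 and 247 CPM in the high fraction. Hoil ΔCd4 mice had 332, 296 and 312 CPM and 250.1, 282 and 270.1 CPM. In Sharpin cpdm mice, with 265, 287 and 266 CPM and 246, 262 and 252 CPM, the low samples were below every low sample of the other genotypes.

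The first comparison asked how these transcripts changed as WT thymocytes matured into the MHC I high fraction. The set split: 5 genes rose (Cd3d, Cd3e, Cd3g, Lck and Lat), 3 fell (Zap70, Lcp2 and Themis) and Cd247 did not pass the test. None of the changes reached 1.3-fold in either direction. Of all genes tested, 54.4% passed in this comparison, 27.5% upwards and 26.8% downwards, so that passing was common between these fractions. As the samples are bulk RNA, a change in the share of a cell type and a change in RNA per cell cannot be told apart in any of these comparisons. Markers moved between the fractions as well. Summed over 7 NK cell genes, CPM ran from 11.7 to 12.2 in the low and from 53.1 to 67.3 in the high fraction of WT mice, mostly through Nkg7, with Ncr1 at 0 counts in all samples, and over 5 γδ T cell genes from 89.5 to 95.8 and from 40.9 to 47.8 CPM. Of 8 genes of mature single-positive cells, 7 rose and 1 fell. The part of these markers in the result was not tested.

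Among the receptor chains, Cd3e rose from 408 ± 12.5 CPM (SD, n = 3) to 523 ± 20.1 CPM (SD, n = 3) (log2 fold change 0.35, SE 0.045, adjusted p = 7.67e-08, limma with Benjamini-Hochberg adjustment), the largest rise of the set. Cd3g rose by a similar amount, with log2 fold change 0.31, SE 0.047, adjusted p = 1.38e-06. Both rises held under all 21 alternative settings. The rise of Cd3d was smaller (log2 fold change 0.11, SE 0.046, adjusted p = 0.0494) and was lost under 10 of the 21. Among these were edgeR and DESeq2, which were fitted without a mouse block, and limma with no replicate block (adjusted p = 0.0977). It was also lost on removal of WT mouse 1, 2 or 3 (adjusted p = 0.123, 0.0989 and 0.113). Cd247 changed by 0.038 on the log2 scale, with a 95% interval of −0.063 to 0.14.

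Of the kinases, Lck rose (log2 fold change 0.21, SE 0.042, adjusted p = 7.61e-05) and Zap70 fell (log2 fold change −0.25, SE 0.043, adjusted p = 8.25e-06), each in 3 of 3 mice. The adaptors also diverged: Lat rose (log2 fold change 0.19, SE 0.043, adjusted p = 0.000323) while Lcp2 fell from 547 ± 23.9 CPM (SD, n = 3) to 448 ± 30.7 CPM (log2 fold change −0.31, SE 0.042, adjusted p = 2.67e-07). Themis had the largest fall, with log2 fold change −0.35, SE 0.047, adjusted p = 2.44e-07. All 5 of these calls held under the 21 alternatives, with adjusted p of at most 0.0126.

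The same question was then put to each mutant. In Hoil ΔCd4 mice 3 genes rose and 3 fell between the fractions, where 45.3% of all genes passed, 23.5% upwards and 21.7% downwards. Cd3e rose by 0.26 (SE 0.055, adjusted p = 0.000296) and Cd3g by 0.29 (SE 0.058, adjusted p = 0.000155) on the log2 scale. Zap70 changed by −0.39 (SE 0.052, adjusted p = 3.09e-07) and Lcp2 by −0.31 (SE 0.052, adjusted p = 9.02e-06), both lower in the high fraction of 3 of 3 mice. The rise of Lck (log2 fold change 0.14, SE 0.051, adjusted p = 0.025) was lost when any Hoil mouse was left out, with adjusted p of 0.134, 0.0568 and 0.158 without mice 1, 2 and 3, with edgeR and DESeq2, and with no replicate block (adjusted p = 0.0584). The fall of Themis, −0.22 (SE 0.058, adjusted p = 0.00224), was lost without Hoil mouse 1 (adjusted p = 0.115). Lat, at 0.12 (SE 0.053, adjusted p = 0.0673), did not pass, but did so without Hoil mouse 2 (adjusted p = 0.0214), with each mouse as a fixed replicate block (0.034), with library size scaling alone (0.0487) and with Xist as a covariate (0.0235). Cd3d changed by 0.0045, with a 95% interval of −0.11 to 0.12, and Cd247 by 0.033, with −0.09 to 0.16, and neither passed.

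In Sharpin cpdm mice 3 genes rose and 3 fell, where 54.6% of all genes passed, 27.2% upwards and 27.4% downwards. The rising genes were Cd3g, at 0.24 (SE 0.05, adjusted p = 0.000148), Lck, at 0.23 (SE 0.044, adjusted p = 6.33e-05), and Lat, at 0.28 (SE 0.045, adjusted p = 3.86e-06). The falling genes were Zap70, at −0.42 (SE 0.045, adjusted p = 2.28e-09), Lcp2, at −0.41 (SE 0.044, adjusted p = 2.23e-09), and Cd247, at −0.17 (SE 0.051, adjusted p = 0.007). The fall of Cd247 was lost without Sharpin mouse 2 (adjusted p = 0.0591) or mouse 3 (adjusted p = 0.118). Cd3e changed by 0.059 (SE 0.047, adjusted p = 0.299) with a 95% interval of −0.037 to 0.16, and Cd3d by 0.013 (SE 0.048, adjusted p = 0.829), and neither passed. Themis, at −0.11 (SE 0.049, adjusted p = 0.064), passed only when the fit held just the groups compared (adjusted p = 0.0457).

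**Figure D2:**
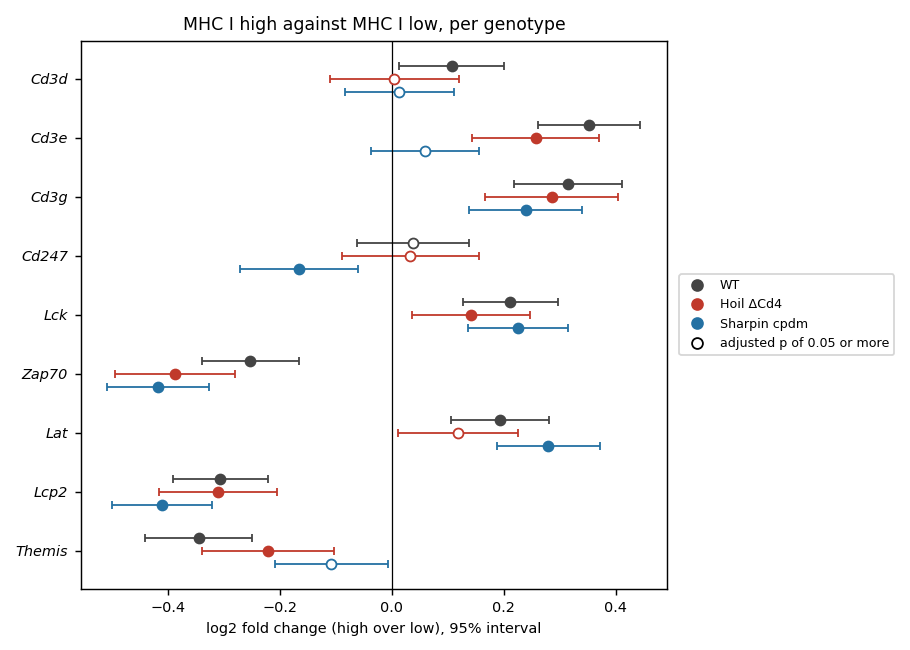
Log2 fold change of each gene between the MHC I high and MHC I low fractions (horizontal axis, high over low) in WT (grey), Hoil ΔCd4 (red) and Sharpin cpdm (blue) mice, 3 mice per genotype, with 95% intervals from the limma model. Filled points passed the test at an adjusted p of 0.05. Zap70 and Lcp2 lay left of 0 and Cd3g and Lck right of 0 in all 3 genotypes, whereas the Cd3e point of Sharpin cpdm mice, at 0.059, lay left of the other 2.

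Whether the change between fractions itself differed from that of WT mice was tested with interaction terms. For Hoil ΔCd4 mice none of the 9 genes passed, at an adjusted or an unadjusted p of 0.05, and edgeR and DESeq2 also called 0, where 0.398% of all genes passed. The differences ran from −0.13 for Zap70 to 0.13 for Themis on the log2 scale, and the 95% interval for Zap70 was −0.27 to 0.0036. For Sharpin cpdm mice 2 genes passed, where 3.13% of all genes did. The rise of Cd3e was smaller than in WT mice by 0.29 (difference −0.29, SE 0.065, adjusted p = 0.00996), and the fall of Themis was smaller by 0.24 (SE 0.068, adjusted p = 0.0488). The call for Cd3e was lost with edgeR (adjusted p = 0.128), with no replicate block (adjusted p = 0.0574) and without WT mouse 3 (adjusted p = 0.0968) or Sharpin mouse 3 (adjusted p = 0.0627). That for Themis was lost under 15 of 21 alternatives: without WT mouse 1, 2 or 3 (adjusted p = 0.265, 0.0613 and 0.174), Hoil mouse 3 (0.0639) or Sharpin mouse 1, 2 or 3 (0.133, 0.119 and 0.175), with no replicate block (0.13) and with each mouse as a fixed block (0.0612), among others. Cd247, at −0.20 (SE 0.071, adjusted p = 0.111), and Zap70, at −0.16 (SE 0.062, adjusted p = 0.143), did not pass.

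Set against WT in the same fraction, none of the 9 transcripts passed the test in Hoil ΔCd4 mice. In the MHC I low fraction, where 0.985% of all genes passed, 0 of the 9 did with limma, edgeR or DESeq2. At an unadjusted p under 0.05 there were 2 (Lck and Zap70). The share of all genes at that unadjusted threshold is not given, here or in the other comparisons. The largest difference was that of Zap70, 0.16 (SE 0.057, adjusted p = 0.217), whose 3 Hoil ΔCd4 samples all exceeded the 3 WT samples, a pattern shown upwards by 7.07% of all genes tested. Cd3e differed by 0.043, with a 95% interval of −0.079 to 0.17, and Themis by 0.0048, with −0.12 to 0.13. In the MHC I high fraction, where 6.65% of all genes passed, 0 of the 9 did with any of the 3 tools, and only Themis, at 0.13 (SE 0.056, adjusted p = 0.17), had an unadjusted p under 0.05. Across both fractions the 95% intervals of all 9 genes lay between −0.16 and 0.28 on the log2 scale. Markers moved too: in the high fraction 6 of 8 double-positive and 4 of 4 γδ T cell genes tested were higher. The double-positive genes summed to 581 to 886 CPM against 528 to 618 CPM in WT mice. The γδ T cell genes summed to 57.3 to 81.1 CPM against 40.9 to 47.8 CPM. Of 8 mature single-positive genes 1 was lower in each fraction, and 0 double-positive genes passed in the low fraction. The part of these markers in the result was not tested.

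In the MHC I low fraction of Sharpin cpdm mice, Cd3e, Cd3g, Cd247, Lck and Zap70 were higher and Themis was lower than in WT mice, while Cd3d, Lat and Lcp2 did not pass. Of all genes tested, 12.2% passed, 5.31% upwards and 6.92% downwards, and the median log2 fold change was 0.15 over the 9 genes against 0.0084 over all genes. No difference exceeded 1.23-fold. The same WT samples served here and in the comparison with Hoil ΔCd4 mice.

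Cd3e was 504 ± 20.6 CPM (SD, n = 3) in Sharpin cpdm mice against 408 ± 12.5 CPM (SD, n = 3) in WT mice (log2 fold change 0.30, SE 0.055, adjusted p = 0.000445), and Zap70 was 554 ± 20.1 CPM (SD, n = 3) against 472 ± 20 CPM (SD, n = 3) (log2 fold change 0.23, SE 0.052, adjusted p = 0.00283). These were the 2 calls that held under all 20 alternatives. The higher level of Cd3g (log2 fold change 0.24, SE 0.058, adjusted p = 0.00499) was lost without WT mouse 1 (adjusted p = 0.0575) or Sharpin mouse 3 (adjusted p = 0.0555). That of Cd247 (log2 fold change 0.21, SE 0.06, adjusted p = 0.0204) was lost without WT mouse 1 or 3 or Sharpin mouse 1 or 2, with adjusted p from 0.0555 to 0.11, and with edgeR (adjusted p = 0.0523). Lck, at 0.15 (SE 0.051, adjusted p = 0.0441), held under 7 of 20 alternatives and was lost without WT mouse 1 or 3, Hoil mouse 3 or any Sharpin mouse, with adjusted p from 0.0503 to 0.223, and with no replicate block (adjusted p = 0.0567). The lower level of Themis (log2 fold change −0.19, SE 0.057, adjusted p = 0.0268) was lost without WT mouse 1 or 3 or Sharpin mouse 1 or 3, with adjusted p from 0.0568 to 0.167. With the Xist level as a covariate it was lost too (adjusted p = 0.129), and Cd3d, at 0.13 (SE 0.056, adjusted p = 0.138), then passed (adjusted p = 0.0325). In all, 6 genes passed, against 4 with edgeR and 5 with DESeq2, and 2 to 6 when 1 mouse was left out, the fewest without WT mouse 1.

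Other markers moved with this result. Summed over 8 genes of mature single-positive cells, CPM ran from 1730 to 1791 in the MHC I low samples of Sharpin cpdm mice, from 1529 to 1552 in those of WT mice and from 1346 to 1396 in those of Hoil ΔCd4 mice, and 3 of the 8 were higher in Sharpin cpdm than in WT mice. Summed over 8 genes of double-positive cells, it ran from 385 to 426 CPM in Sharpin cpdm and from 452 to 484 CPM in WT mice, with 1 of the 8 lower. Cd69 was lower as well, at 314 ± 6.75 CPM (SD, n = 3) against 404 ± 24 CPM (adjusted p = 0.00353). Trac, the constant region of the TCR α chain, was higher, with log2 fold change 0.29, SE 0.053 and adjusted p = 0.000397. The part of these markers in the result was not tested.

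In the MHC I high fraction of Sharpin cpdm mice only Lck, at 0.17 (SE 0.046, adjusted p = 0.0193), and Cd3g, at 0.17 (SE 0.052, adjusted p = 0.04), passed, both upwards, where 8.62% of all genes passed and 4.15% did so upwards. Neither passed with edgeR (adjusted p = 0.256 for Lck and 0.315 for Cd3g) or DESeq2 (0.198 and 0.324), nor with the mouse number as a replicate block (0.0594 and 0.0745). Without WT mouse 1 or 3 or Sharpin mouse 2 both were lost, with adjusted p from 0.232 to 0.585. Lck was also lost without Sharpin mouse 1 (0.0736), and Cd3g without Sharpin mouse 3 (0.14). Cd3e, which differed in the low fraction, was 0.0022 in the high fraction with a 95% interval of −0.099 to 0.10, and Themis was 0.048 with −0.058 to 0.15. Markers moved in this comparison too: 3 of 4 γδ T cell genes tested and 4 of 8 double-positive genes were higher in Sharpin cpdm mice. The double-positive genes summed to 604 to 759.5 CPM against 528 to 618 CPM in WT mice, and the γδ T cell genes to 47.4 to 57.7 CPM against 40.9 to 47.8 CPM. The part of these markers in the result was not tested.

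**Figure D3:**
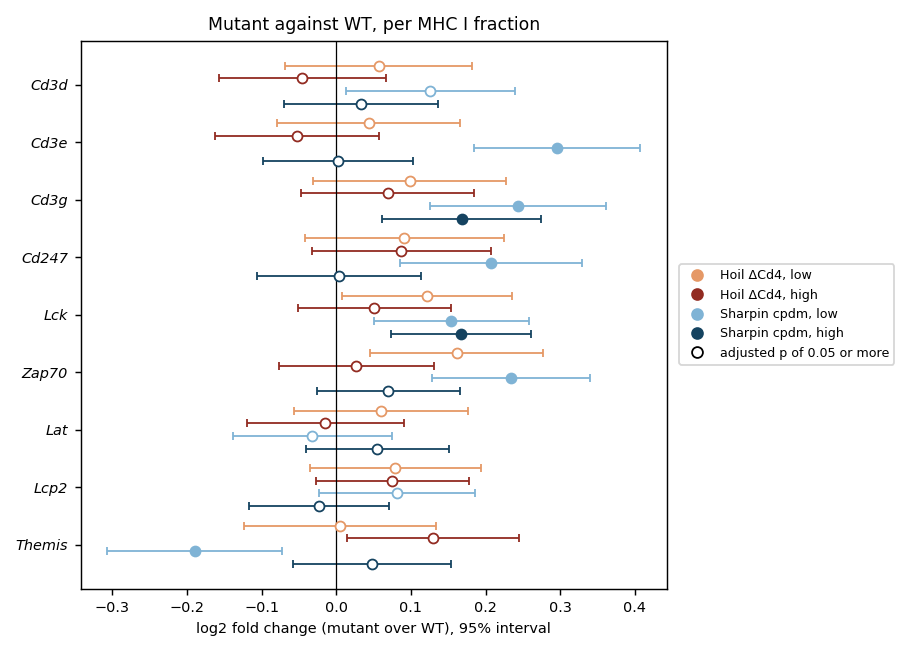
Log2 fold change of each gene between mutant and WT mice (horizontal axis, mutant over WT) in Hoil ΔCd4 (orange, MHC I low, and dark red, MHC I high) and Sharpin cpdm mice (light blue, low, and dark blue, high), with 95% intervals from the limma model over 3 mice a group. Filled points passed the test at an adjusted p of 0.05: 6 of 9 in the low and 2 of 9 in the high fraction of Sharpin cpdm mice, and 0 in Hoil ΔCd4 mice.

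The mutants were also compared with each other. In the MHC I low fraction Cd3e was lower in Hoil ΔCd4 than in Sharpin cpdm mice (log2 fold change −0.25, SE 0.062, adjusted p = 0.0084), the single gene of the set to pass where 9.48% of all genes did, and this call was lost without Hoil mouse 1 (adjusted p = 0.134). Themis differed by 0.19 (SE 0.065, adjusted p = 0.0523) between Hoil ΔCd4 and Sharpin cpdm mice, which did not pass, although its groups did not overlap, as was so upwards for 13.6% of all genes. It passed with edgeR (adjusted p = 0.0275), DESeq2 (0.0107) and the mouse number as a replicate block (0.0259), and without WT mouse 1 (0.0491) or Hoil mouse 2 (0.0461). Cd3g, at −0.15 (SE 0.065, adjusted p = 0.163), passed only without Sharpin mouse 1 (0.0356). For Zap70 the difference was −0.073, with a 95% interval of −0.19 to 0.047. In the MHC I high fraction, where 6.73% of all genes passed, 0 of the 9 did with limma, edgeR or DESeq2, and 1 had an unadjusted p under 0.05. That gene was Lck, at −0.12 (SE 0.051, adjusted p = 0.175).

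The balance of the 4 signalling chains can be read per length, as each chain's share of their summed RPKM. The sum was 1226 ± 32.7 RPKM in the MHC I low and 1470 ± 69.5 RPKM in the MHC I high fraction of WT mice (SD, n = 3). In Sharpin cpdm mice it was 1437 ± 98.6 RPKM already in the low fraction and 1531 ± 48.4 RPKM in the high fraction. Cd3g supplied the largest share in every group. Its share was 42.0% ± 0.704 in the low and 44.2% ± 0.604 in the high fraction of WT mice, and 42.6% ± 1.43 and 46.5% ± 0.646 in Sharpin cpdm mice. The share of Cd3d was lower in the high fraction, at 26.2% ± 0.469 against 23.7% ± 0.401 in WT mice, and that of Cd247 was 8.64% ± 0.169 against 7.40% ± 0.409. As the shares sum to 100, a lower share does not mean a lower transcript: in WT mice Cd3d was 426 CPM in the low and 462 CPM in the high fraction, and Cd247 was 487 and 501 CPM, while Cd3e and Cd3g rose. The level of the Cd247 share also depends on how reads of its overlapping exons were counted, which is not known. In each genotype the ranges of the Cd3d, Cd3g and Cd247 shares did not overlap between fractions. No test was made on the shares.

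**Figure D4:**
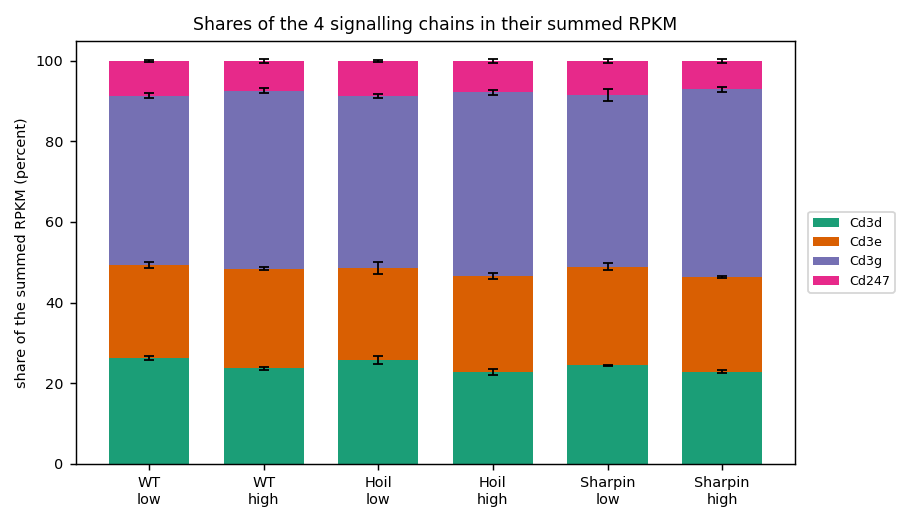
Mean share (percent) of Cd3d, Cd3e, Cd3g and Cd247 in their summed RPKM for each of the 6 groups, stacked to 100, with the SD over 3 mice at the top of each segment. The Cd3g segment grew from 42.0% to 44.2% between the fractions of WT mice, and the mean Cd247 share ran from 7.09% to 8.73% over the groups.

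The rest of the pathway was described by 4 lists holding 79 measured genes. Between the fractions of WT mice, 25 of the 79 rose and 34 fell, where 54.4% of all genes passed, 27.5% upwards and 26.8% downwards, with a median log2 fold change of −0.053 against −0.0042 over all genes. Co-receptors and accessory molecules had 3 higher and 7 lower of 12. Regulators of the kinases and phosphatases had 6 and 6 of 20, partners of LAT and SLP-76 had 5 and 11 of 22, and the downstream branches had 11 and 10 of 25. The genes of smallest p that rose were Cd8a, the CD8 co-receptor α chain (log2 fold change 1.72, SE 0.058, adjusted p = 1.8e-19), Dgka, a diacylglycerol kinase (0.75, SE 0.047), and Grap2, which encodes Gads, the link between LAT and SLP-76 (0.65, SE 0.046). Those that fell were Sh3bp2, an adaptor (−1.61, SE 0.053), Nfatc1, a calcium-regulated transcription factor (−1.36, SE 0.057), and the co-stimulatory receptor Cd27 (−0.81, SE 0.039). Of the TCR chain genes, Trbc1 (−0.43) and Trbc2 (−0.37) fell and Trac did not pass (0.053, adjusted p = 0.321). Ptcra, the pre-TCR α chain, rose (1.38, SE 0.26) at a very low level. Its mean was 0.455 CPM in the low and 1.40 CPM in the high fraction, with at most 45 counts in any sample. Trbc1 and Trbc2 are nearly identical in sequence, and reads shared by them could be split between them or lost in counting.

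The same genes were compared between mutants and WT mice. In the low fraction of Hoil ΔCd4 mice, where 0.985% of all genes passed, 1 of the 79 did, Dgkz, a diacylglycerol kinase, which was higher (log2 fold change 0.30, SE 0.073, adjusted p = 0.0419) with overlapping groups. In the low fraction of Sharpin cpdm mice 6 of the 79 were higher and 5 lower, a share near the 12.2% of all genes. Nfatc1 (0.35, SE 0.070, adjusted p = 0.00115) and Csk, the kinase that restrains Lck (0.25, SE 0.055, adjusted p = 0.00314), were higher. The ubiquitin ligase gene Cbl (−0.44, SE 0.085, adjusted p = 0.00151) and Grap2 (−0.22, SE 0.055, adjusted p = 0.00914) were lower. In the high fraction 2 were higher and 5 lower, again near the share of all genes, 8.62%, with Nfatc1 (0.35, SE 0.063) and Cd8a (0.32, SE 0.064) higher and Sh2d2a, an adaptor that binds Lck (−0.18, SE 0.044), and the ubiquitin ligase gene Cblb (−0.24, SE 0.062) lower.

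**Figure D5:**
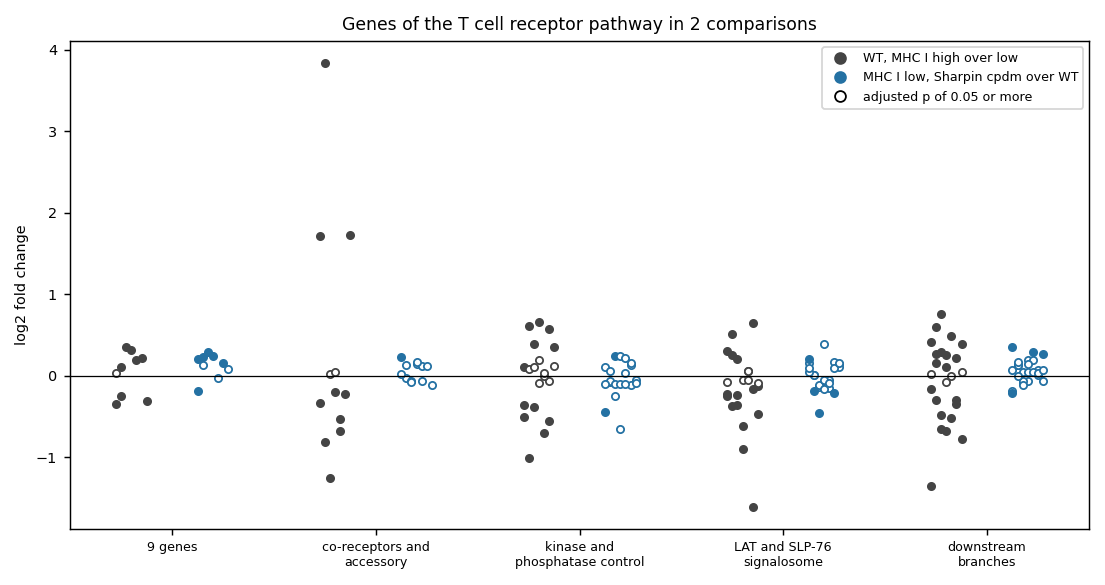
Log2 fold change (vertical axis) of the 9 genes and of the 79 other pathway genes in 4 lists (horizontal axis), for MHC I high over low in WT mice (grey) and for Sharpin cpdm over WT mice in the MHC I low fraction (blue). Filled points passed the test at an adjusted p of 0.05. The 9 genes stayed between −0.35 and 0.35 in both comparisons, within the range of each other list between the WT fractions.

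Transcripts were set against the mean of the 4 CD3 chains, the mean of Lck and Zap70, and Themis over the 18 samples. Lat and Lcp2 entered none of these profiles. Those of highest Pearson's r on the log2 scale were named, as a description over samples that share genotype, fraction and mouse. The mean of the 4 CD3 chains was followed most closely by Calr, an endoplasmic reticulum chaperone (r = 0.924), Rnf187 (r = 0.907) and Ly9, a SLAM-family receptor (r = 0.898). Mean CPM of Calr was 284 in the low and 325 in the high fraction of WT mice, 287 and 348 in Hoil ΔCd4 mice, and 361 and 343 in Sharpin cpdm mice. The mean of Lck and Zap70 was followed by Dhx16 (r = 0.894), Mars1 (r = 0.880) and Ranbp3 (r = 0.873). As Lck was higher and Zap70 lower in the high fraction, a transcript that follows their mean need not follow either gene. In WT mice mean CPM of Dhx16 was 157 in the low and 141 in the high fraction, where Lck rose. Themis was followed by Zfp800 (r = 0.938), Nebl (r = 0.936) and Lig4, the DNA ligase of end joining (r = 0.934). Mean CPM of Lig4 was 49.6 and 28.4 in the low and high fractions of WT mice, and 39.0 and 29.1 in those of Sharpin cpdm mice.

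Because Sharpin cpdm mice were not fully backcrossed, genes within 1 Mb of each member were examined in the comparisons with WT mice, in which 12.2% of all genes passed in the low and 8.62% in the high fraction. Around Lat, 13 of 56 genes tested passed in the low and 9 of 56 in the high fraction, led by Cln3 (log2 fold change −1.73 and −1.58), whereas Lat passed in neither. Around the CD3 cluster on chromosome 9, 7 of 43 passed in the low and 4 of 43 in the high fraction, the 9 genes themselves not counted. The gene of smallest p there was Kmt2a (−0.61) in the low and Scn4b (−1.52) in the high fraction. Near Zap70, 2 of 21 passed in the low and 3 of 21 in the high fraction, led by Arid5a in both (−0.26 and −0.23). Near Lck, 4 of 32 passed in the low fraction, led by Zfp362 (0.30), and 1 of 32, Marcksl1 (−0.38), in the high fraction. Near Lcp2, 1 of 5 passed in the low fraction, Spdl1 (−0.49), and 0 of 5 in the high fraction by limma, with 2 at an unadjusted p under 0.05. Around Cd247 0 of 11 and around Themis 0 of 4 passed by limma in either fraction. At an unadjusted p under 0.05 there were 4 in the low and 1 in the high fraction near Cd247. Near Themis there were 0 in the low and 0 in the high fraction. The share of all genes at that unadjusted threshold is not given. The part of linked alleles in the values of the 9 genes was not tested.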

How the data were processed

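The authors sequenced RNA of 18 sorted thymocyte samples and deposited raw counts per gene, assigned with featureCounts to the mm10 build according to the submitters' processing notes. The version, strand setting and handling of multi-mapping reads are not given in the sources used here. Their combined table was not used, and 0 columns of per-sample values were left unmapped. Of the gene identifiers, 1904, with 0.655% of counts, matched no RefSeq gene and were left out, as were Y-linked, Xist, predicted and unnamed genes.

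The filter required 0.5 CPM or more in 3 or more samples, and scaling was by TMM. Log2 CPM with a prior count of 1 was fitted with limma (6 groups, sample quality weights, trended and robust variance, mouse as a random replicate block), with Benjamini-Hochberg adjustment over 12798 genes and a threshold of 0.05. The labels give the mouse, and its fractions deviated together (r across genes from 0.0702 to 0.256, estimated correlation 0.224). Replicates differed by more than sampling noise (chi-square divided by its degrees of freedom, 3.952 to 14.12). RPKM used exon length. All 9 genes were named in every comparison; pathway genes were named by smallest p, likeness by Pearson's r, and neighbours by smallest p within 1 Mb. Members and lists were chosen with earlier results of these data known. Scripts were tested on simulated data (limma 3.58.1 with statmod 1.5.0, DESeq2 1.42.0 and edgeR 4.0.16 in R 4.3.3, and matplotlib 3.10.9). Alternatives included edgeR, DESeq2, other filters, blocks and covariates, and leaving out each mouse. The edgeR and DESeq2 fits held the 6 groups alone, without the mouse block or sample quality weights, so they also left out the pairing of fractions. The block by mouse number joins mice of equal number across genotypes, for which no shared batch is stated. A pathway result in the high fraction of Hoil ΔCd4 mice is not reported here.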

Additional observations from a re-analysis of the deposited data

Results flagged for a closer look

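The change from the MHC I low to the MHC I high fraction differed between Sharpin cpdm and WT mice for 2 of the 9 genes. This was tested by the interaction term of the limma model, which 3.13% of all genes passed. The log2 difference was −0.29 for Cd3e (SE 0.065, adjusted p = 0.00996) and 0.24 for Themis (SE 0.068, adjusted p = 0.0488). The Cd3e call was lost with edgeR (adjusted p = 0.128), with no replicate block (0.0574) and without WT mouse 3 (0.0968) or Sharpin mouse 3 (0.0627), and the Themis call under 15 of 21 alternatives, with adjusted p up to 0.265. Of the 79 pathway genes, 2 were higher and 1 lower by this term, near the share of all genes. The log2 difference was 0.44 for Cd8a (SE 0.084, adjusted p = 0.00399) and 0.41 for Cbl (SE 0.10, adjusted p = 0.0284). Both had been named for their small p in comparisons of the same groups, so these values are not separate evidence. The differences of Cd8a and Cbl were not recomputed under the alternatives.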

How the results depend on the processing

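Over 21 alternatives, 2351 recomputed fold changes of single genes kept their side of the threshold in 2210 cases, lost a call in 126 and gained one in 15. None of those called in either fit changed sign, and 75 called in neither did. Of 225 recomputed counts of the 9 genes called, 186 lay within 1.5 times the reported count. The 186 include the comparisons with a reported count of 0, which stayed at 0 under every alternative. These were Hoil ΔCd4 against WT mice in either fraction, the mutants in the high fraction and the Hoil interaction. Leaving out 1 mouse gave 2 to 6 calls between Sharpin cpdm and WT mice in the low fraction (6 reported), 0 to 2 in the high fraction (2 reported), 0 to 2 between the mutants in the low fraction (1 reported) and 0 to 2 for the Sharpin interaction (2 reported). In the high fraction of Sharpin cpdm against WT mice, 0 were called with edgeR, DESeq2, no filter or no weights. Between the mutants in the low fraction, 2 were called with edgeR, DESeq2, at least 10 counts in every sample, no weights or Xist as a covariate. For the Sharpin interaction, 0 were called with edgeR, and 1 with DESeq2, no filter, no weights or Xist as a covariate. The cause was not tested.

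With no replicate block, 0 of the 9 were called for the Sharpin interaction, 5 between Sharpin cpdm and WT mice in the low fraction and 7 between the WT fractions. With the mouse number as a fixed replicate block, 0 were called in the high fraction of Sharpin cpdm against WT mice, 2 between the mutants in the low fraction and 1 for the Sharpin interaction, and with each mouse as a fixed block 1 was called for the latter. Over all genes, 851 were called between Hoil ΔCd4 and WT mice in the high fraction against 404 with edgeR and 484 with DESeq2, 1103 between Sharpin cpdm and WT mice there against 521 and 601, 51 for the Hoil interaction against 1 and 20, and 400 for the Sharpin interaction against 30 and 134. The limit set by sequencing depth was not separated from that set by 3 mice a group.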
